A study of Mus musculus with 32 samples.

Results

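The superoxide and peroxide detoxifying enzymes examined here are 10 genes: the superoxide dismutases Sod1 and Sod2, the copper chaperone Ccs, catalase (Cat), the peroxiredoxins Prdx1, Prdx3, Prdx5 and Prdx6, and the glutathione peroxidases Gpx1 and Gpx2. They were chosen by name, with earlier results of these data known, and all 10 were found among the 11818 genes measured. Epcam+ cells from the lungs of 4 C57BL/6J mice were grown in Matrigel together with CCL206 cells, a line of mouse lung fibroblasts in which mitomycin C had stopped proliferation. The cultures received vehicle, extracellular vesicles (EVs) or soluble factors (SFs) from MRC5 human lung fibroblasts, or human recombinant osteoglycin (OGN, 10 µg/mL), for 72 h. The cultures were then taken apart and resorted with Epcam (CD326) beads, which gave Epcam+ cells and CCL206 fibroblasts of each culture. RNA of both populations was sequenced, so that the 32 libraries form 8 groups of 4, and a mouse number links the libraries of a culture series. All fibroblast libraries come from 1 cell line, the vesicles and proteins are human, and the amounts of EVs, SFs and OGN are on different scales, so that treatments are set beside each other but not at matched doses.

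Superoxide is made mainly by the respiratory chain and by NADPH oxidases. Dismutases turn it into hydrogen peroxide, Sod1 in the cytosol and Sod2 in the mitochondrial matrix, and Ccs loads copper into Sod1. Catalase in peroxisomes, peroxiredoxins that draw on thioredoxin (or, for Prdx6, on glutathione), and selenium-containing glutathione peroxidases then reduce the peroxide. Sod2 is a textbook NF-kB target that rises with inflammatory stimuli, Prdx6 is abundant in lung epithelium, and Gpx2 is known as an epithelial enzyme.

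The 250 bases before the start site are printed for Sod2, Prdx5 and Cat, the 3 members that passed the test with OGN in Epcam+ cells or fibroblasts. The sequences are RefSeq's on GRCm38.p6, read 5′ to 3′ along the gene, and capitals mark each GC box (GGGCGG) and CCAAT box (CCAAT) on either strand.
Sod2, chr17:13007589-13007838, plus strand: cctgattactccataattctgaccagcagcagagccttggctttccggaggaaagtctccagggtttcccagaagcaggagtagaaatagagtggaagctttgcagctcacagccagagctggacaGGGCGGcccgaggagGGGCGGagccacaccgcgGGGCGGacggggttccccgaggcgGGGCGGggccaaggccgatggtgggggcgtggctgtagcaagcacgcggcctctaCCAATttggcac
Prdx5, chr19:6910107-6910356, minus strand: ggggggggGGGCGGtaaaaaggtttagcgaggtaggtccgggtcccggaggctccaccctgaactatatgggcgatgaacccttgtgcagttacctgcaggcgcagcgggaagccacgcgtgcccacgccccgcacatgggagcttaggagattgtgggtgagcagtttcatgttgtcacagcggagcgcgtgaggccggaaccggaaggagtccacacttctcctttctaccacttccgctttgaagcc
Cat, chr2:103485154-103485403, minus strand: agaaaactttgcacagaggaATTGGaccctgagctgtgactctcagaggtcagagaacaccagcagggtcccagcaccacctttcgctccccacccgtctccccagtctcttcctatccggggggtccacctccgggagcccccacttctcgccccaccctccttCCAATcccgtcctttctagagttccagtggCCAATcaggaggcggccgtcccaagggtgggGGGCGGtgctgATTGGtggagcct
The Sod2 window held 4 GC boxes and 1 CCAAT box, the Cat window 1 and 4, and the Prdx5 window 1 and 0. Of 32851 promoter windows of the same length, 32.7% held a GC box and 33.8% a CCAAT box. The core of the antioxidant response element (TGACNNNGC, either strand) was found in the windows of Sod1 and Prdx1 among the 8 members with an entry, and in 10.2% of all windows. It was not found in those of Sod2, Prdx5 and Cat. These are matches of letters in a window and not mapped sites.

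The libraries held between 1805914 and 17675454 counts each. Fibroblast libraries carried 6 of 6 epithelial markers of the list used (Epcam, Cdh1, keratins and Cldn4) at a summed 154 to 660 CPM (counts scaled to library size), against 4638 to 7003 CPM in Epcam+ libraries. The 9 fibroblast markers in the table summed to 7834 to 13270 CPM in fibroblast libraries and 2052 to 3745 CPM in Epcam+ libraries, and the 10 markers of alveolar type 2 cells to 9552 to 15999 CPM in Epcam+ libraries and 1597 to 4841 CPM in fibroblast libraries. Epcam+ libraries carried the fibroblast gene Col1a2 at 22.4% ± 4.00 (SD, n = 4) of the paired fibroblast level with vehicle and at 20.6% ± 1.8 with OGN. Each population therefore contained RNA of the other, and its part in the results was not tested. Within the fibroblasts, the libraries that mice 2 and 4 gave with EVs stood apart. Relative to the mean of the vehicle libraries of the population, short genes were high and long genes low in them. Spearman's rho of that log2 difference against transcript length across genes was -0.53 and -0.57. It was -0.25 and -0.32 in the EV-treated libraries of mice 1 and 3 and at least -0.26 in all other libraries. In bulk libraries, fewer cells that express a gene and less RNA per cell cannot be told apart.

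Without treatment, Gpx2 was 22.9-fold higher in Epcam+ cells and Prdx6 4.59-fold higher, Sod1, Cat and Prdx1 were also higher there, and Gpx1 and Ccs were higher in fibroblasts. Levels between genes are compared per kb of coding length. On that scale (CPM per kb) Prdx1 was the highest member in both populations, at 975 ± 59.8 in Epcam+ cells and 641 ± 35.9 in fibroblasts (mean ± SD, n = 4). In Epcam+ cells Prdx6 followed at 923 ± 28.5, within the spread of Prdx1, then Gpx2 at 495 ± 98.6 and Sod1 at 403 ± 44.0. Prdx5 at 218 ± 39.4 and Gpx1 at 216 ± 29.1 did not differ beyond their spread, Sod2, Cat and Prdx3 lay between 117 and 144, and Ccs was lowest at 34.3 ± 3.68. In fibroblasts Gpx1 came next after Prdx1 at 299 ± 28.8 and Gpx2 was lowest at 22 ± 6.44. The order is bound to the length used, since with the median length of a gene's transcripts 1 of 10 members in Epcam+ cells and 3 of 10 in fibroblasts kept their rank. The highest member changed too. With that length Prdx6 (331 ± 10.2) and Gpx2 (266 ± 52.9) lay above Prdx1 (220 ± 13.5) in Epcam+ cells, and Gpx1 (185 ± 17.8) above Prdx1 (144 ± 8.08) in fibroblasts.

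**Figure D1:**
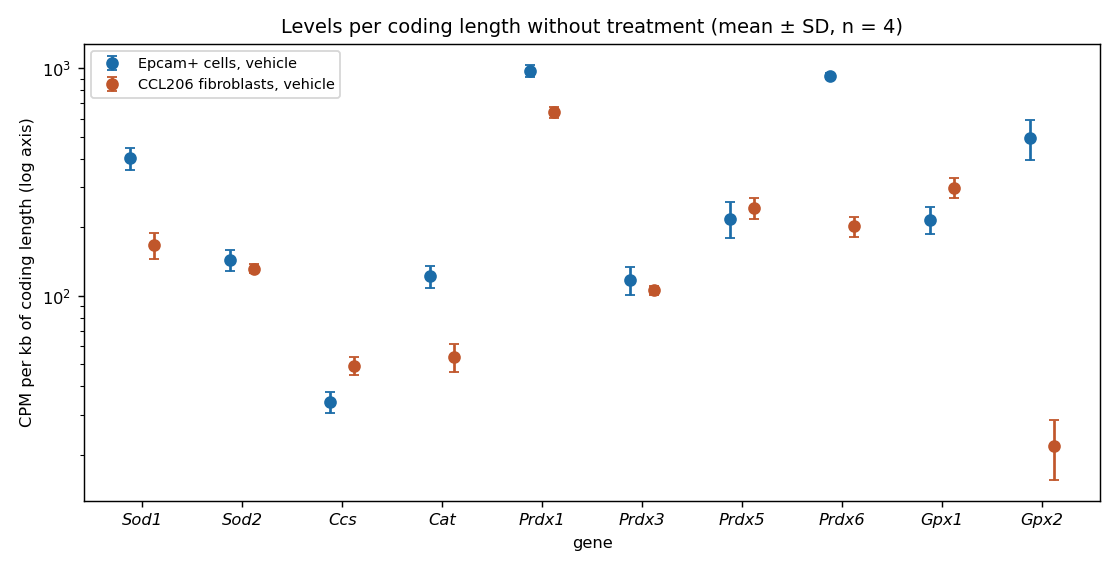
Mean level of each enzyme gene in CPM per kb of coding length (log axis) in vehicle-treated Epcam+ cells (blue) and CCL206 fibroblasts (orange), with SD over 4 libraries as bars. Gpx2 (495 against 22) and Prdx6 (923 against 202) show the widest gaps between the populations, and Sod2 (144 against 132) one of the narrowest.

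Over the 8 vehicle-treated libraries, 7 of the 10 members passed edgeR's quasi-likelihood test (adjusted p under 0.05) between the populations, 5 of them higher in Epcam+ cells and 2 lower, where 71.4% of all genes tested passed (35.6% higher, 35.8% lower). Gpx2 was at 339, 302, 282 and 206 CPM in the Epcam+ libraries of mice 1 to 4 and at 14.6, 15.5, 12.7 and 7.32 CPM in the fibroblast libraries. All Epcam+ values lay far above all fibroblast values (log2 fold change 4.51, SE 0.0978, adjusted p = 4.73e-10). The fibroblast level of Gpx2 was 4.37% ± 0.650 of the paired Epcam+ level, beside 3.97% ± 1.14 for Epcam, 10.3% ± 4.25 for the epithelial cadherin Cdh1 and 121% ± 184 for the surfactant gene Sftpc, whose Epcam+ level ran from 663 to 6789 CPM with vehicle. Prdx6, which reduces phospholipid hydroperoxides and handles surfactant phospholipid, was at 605 to 647 CPM in Epcam+ cells and 118 to 151 CPM in fibroblasts (log2 2.20, SE 0.0868). Sod1 (log2 1.28, SE 0.0891) and Cat (log2 1.18, SE 0.10) were each more than 2-fold higher in Epcam+ cells, and Prdx1 was higher by log2 0.61 (SE 0.0640). Ccs (log2 -0.54, SE 0.129) and Gpx1 (log2 -0.47, SE 0.0971) went the other way. The mitochondrial members Sod2 (log2 0.13, SE 0.0876, adjusted p = 0.220 by edgeR) and Prdx3 (log2 0.14, SE 0.102) and the partly mitochondrial Prdx5 (log2 -0.16, SE 0.0974) did not pass. These 7 calls held in all 12 alternatives run, from another count model to leaving out each mouse.

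Sod2 (chr17:13007839-13018119, GRCm38.p6), the manganese dismutase of mitochondria, was the member that passed with OGN in both populations. In vehicle-treated Epcam+ cells of mice 1 to 4 it was at 89.9, 87.2, 97.7 and 110 CPM. With OGN it was at 138, 146, 132 and 156 CPM, so that the groups did not overlap and each of the 4 mice went up. The rise was 1.49-fold (log2 0.57, SE 0.0878, adjusted p = 0.000296 by edgeR). Epcam+ libraries with OGN carried Col1a2 at 20.6% ± 1.8 of the paired fibroblast level, and Sod2 also rose in fibroblasts. The part of fibroblast RNA in the Epcam+ rise was not tested. EV-treated Epcam+ cells were at 91.0, 98.0, 94.8 and 84.1 CPM and SF-treated ones at 110, 112, 112 and 107 CPM. The order of group means was EVs (92.0 ± 5.96), vehicle (96.1 ± 10.1), SFs (110 ± 2.18) and OGN (143 ± 10.2), in which EVs and SFs did not pass against vehicle and OGN lay above every other library of the population. Sod2 is among the genes that the study picked out in these same libraries, so its call is not independent evidence. The immune markers in the table (Lyz2, Cd14 and Cd68, 3 of 10) moved with it, at a summed 464 to 513 CPM with vehicle and 712 to 872 CPM with OGN, with Cd68 at 3.70 ± 1.81 and 5.76 ± 2.14 CPM, and the other 7, among them Ptprc, were not analysed here. Their part in the result was not tested.

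In CCL206 fibroblasts the Sod2 response was larger. Vehicle-treated fibroblasts were at 85.3, 88.6, 92.8 and 84.4 CPM and OGN-treated ones at 225, 220, 202 and 224 CPM. Again no value of a group reached the other, and the rise was 2.47-fold (log2 1.31, SE 0.0927, adjusted p = 4.28e-07 by edgeR). With EVs the level was 107, 113, 106 and 136 CPM and with SFs 122, 131, 120 and 120 CPM, both above every vehicle value and below every OGN value. The means thus ran from vehicle (87.8 ± 3.80) through EVs (116 ± 14.1) and SFs (123 ± 5.03), which overlapped, to OGN (218 ± 10.9). Fibroblasts held 92.1% ± 10.6 of the paired Epcam+ level with vehicle and 152% ± 8.07 with OGN. The difference of the OGN responses (fibroblasts minus Epcam+ cells) was log2 0.73 (SE 0.123, adjusted p = 0.00198 by edgeR's interaction test), where 0.551% of all genes passed. It passed in 13 of 14 alternatives and had an adjusted p of 0.0556 without mouse 3. The summed immune markers were at 77.4 to 149 CPM with vehicle and 196 to 341 CPM with OGN in fibroblast libraries, and 2 of 3 were called higher. Lyz2 was at 74.9 ± 29.6 and 151 ± 50.2 CPM, Cd14 at 30.0 ± 3.73 and 102 ± 16.6 CPM, and Cd68 at 5.31 ± 0.317 and 6.25 ± 1.72 CPM. The part of these markers was not tested.

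**Figure D2:**
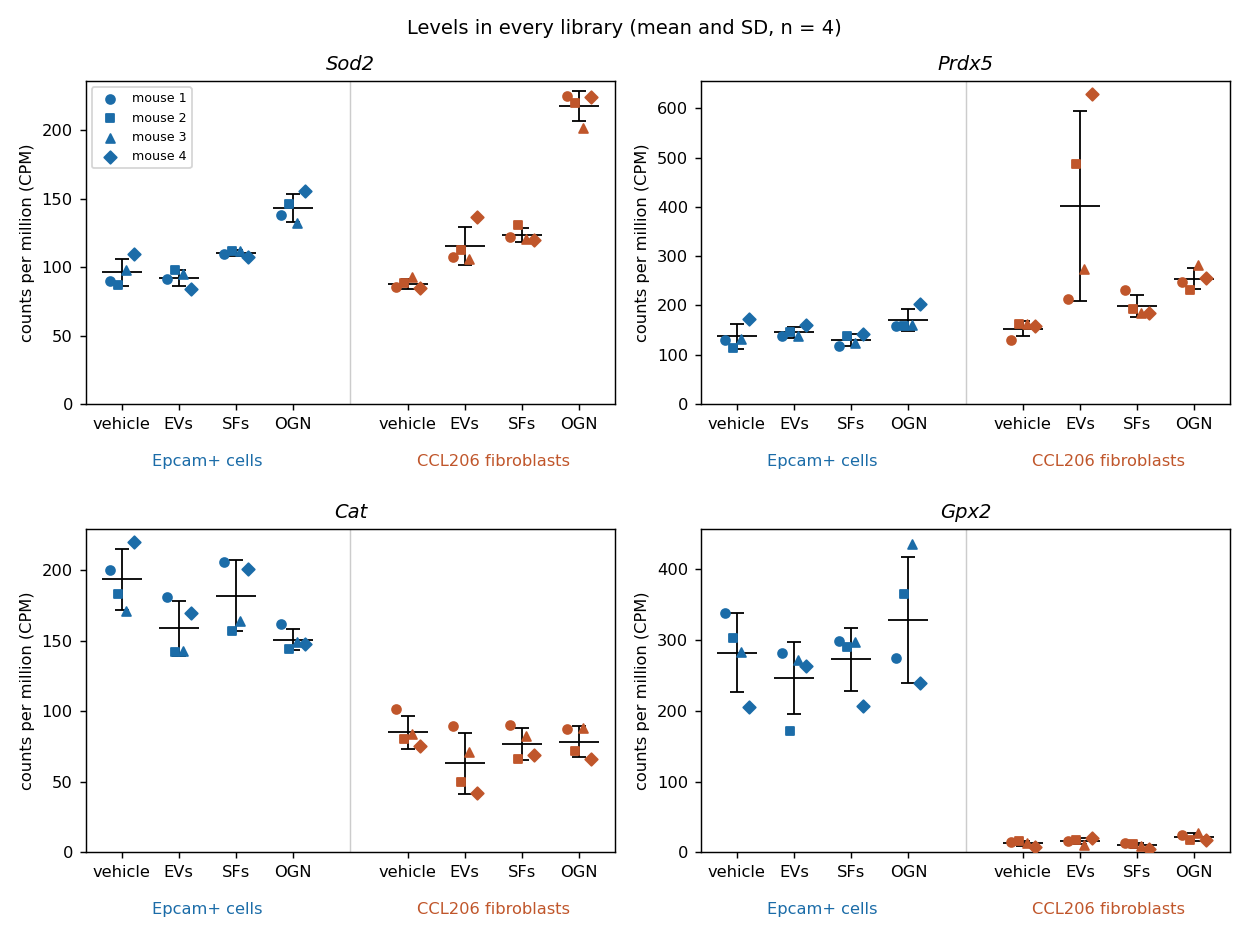
CPM of Sod2, Prdx5, Cat and Gpx2 in every library, by treatment within Epcam+ cells (blue) and CCL206 fibroblasts (orange), where symbols mark the mouse number and black bars the mean and SD of 4 libraries. Sod2 with OGN lies above all other groups of its population (132 to 156 CPM in Epcam+ cells, 202 to 225 in fibroblasts), and the EV-treated fibroblasts of mice 2 and 4 stand out for Prdx5 (488 and 629 CPM).

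With OGN, 3 of the 10 members passed in Epcam+ cells, 2 higher and 1 lower, where 2.7% of all genes passed (1.48% higher, 1.22% lower). Beside Sod2 these were Prdx5 and Cat. Prdx5 (chr19:6906697-6910106), a peroxiredoxin of mitochondria, peroxisomes and cytosol, went from 131, 115, 132 and 173 CPM with vehicle to 159, 157, 161 and 203 CPM with OGN. The groups overlapped because mouse 4 was high in both, but each of the 4 mice went up (log2 0.31, SE 0.0807, adjusted p = 0.0418 by edgeR). The adjusted p was 0.274 without the mouse term, and 0.223, 0.108 and 0.179 without mouse 1, 2 or 3, at log2 values between 0.27 and 0.32. Prdx5 also did not pass with only the 8 libraries compared, and it passed in 7 of 12 alternatives. The call thus rests on the pairing by mouse, on mice 1, 2 and 3 and on the fit over 16 libraries. Prdx5 overlaps Trmt112 on the genome, and reads in the overlap cannot be told apart without strand information. In fibroblasts the mean of Prdx5 was 153 CPM with vehicle and 255 CPM with OGN. The part of fibroblast RNA in the Epcam+ call of Prdx5 was not tested.

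Cat (chr2:103453904-103485153), the hydrogen peroxide-degrading enzyme of peroxisomes, was at 200, 183, 171 and 220 CPM in vehicle-treated Epcam+ cells and at 162, 144, 149 and 147 CPM with OGN. Every OGN value lay below every vehicle value, and the level fell by 0.35 on the log2 scale (SE 0.0736, 0.785-fold, adjusted p = 0.00785 by edgeR). EV-treated cells were at 181, 142, 142 and 170 CPM, a log2 fold change of -0.30 (SE 0.0728) with an adjusted p of 0.0508, and SF-treated cells at 206, 157, 164 and 201 CPM. The OGN call for Cat had an adjusted p of 0.0851 without the mouse term, 0.0667 without mouse 1, 0.0711 without mouse 4 and 0.0576 with only the 8 libraries compared, and its direction held throughout. Markers of other epithelial cells moved in the same comparison of OGN with vehicle in Epcam+ cells, in which Sod2, Prdx5 and Cat were called. Secretory airway markers (3 of 7 in the table) summed to 2577 to 3234 CPM with vehicle and 1388 to 2307 CPM with OGN, without overlap, and 2 of 3 were lower. Basal cell markers (4 of 6 in the table) summed to 883 to 2562 CPM and 471 to 1603 CPM, and 3 of 4 were lower. Markers of alveolar type 1 cells (7 of 8 in the table) summed to 1996 to 2159 CPM and 1803 to 2145 CPM, and 2 of 7 were lower. With EVs 3 of 4 basal and 2 of 3 secretory markers were also lower, and with SFs 3 of 4 and 1 of 3. No alveolar type 1 marker was called with EVs or SFs. Basal sums had medians of 1347, 1400 and 1416 CPM with EVs, SFs and OGN, against 2162 CPM with vehicle. Of 3 ciliated markers measured, 0 were called with OGN. Among 10 alveolar type 2 markers 2 were higher and 1 lower with OGN, and among 9 fibroblast markers 1 was higher and 2 lower. Of 6 epithelial markers 0 were called, beside 2.7% of all genes. The part of all these markers in the 3 calls was not tested.

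The other 7 members in Epcam+ cells did not pass with OGN. Gpx1, the cytosolic selenoenzyme, was at 107 to 150 CPM with vehicle and 137 to 155 CPM with OGN (log2 0.19, SE 0.0815, adjusted p = 0.302 by edgeR). Gpx2 was spread from 239 to 435 CPM among OGN-treated libraries (log2 0.21, SE 0.144). Sod1, Ccs, Prdx1, Prdx3 and Prdx6 had log2 fold changes between -0.05 and 0.05 with SE of 0.0901 to 0.144. Prdx6 was at 552, 644, 570 and 823 CPM and Sod1 at 166, 183, 139 and 244 CPM in OGN-treated Epcam+ cells of mice 1 to 4. Both were highest in mouse 4. Its library also had the most negative rho of level, relative to the vehicle mean, against transcript length among the Epcam+ libraries (-0.26). Against coding length its rho was -0.17, and that of the vehicle-treated library of mouse 4 was -0.20. Sod1 has the longest median transcript length of the members (5203 bases) and the shortest coding length (462 bases). The part of length in these levels was not tested. The median log2 fold change of the 10 members was 0.05, beside -0.003 over all genes tested.

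In fibroblasts, Sod2 was the 1 member of 10 that passed with OGN, where 4.56% of all genes passed. Prdx5 and Gpx2 followed without passing. Prdx5 was at 129, 162, 162 and 159 CPM with vehicle and at 247, 232, 282 and 256 CPM with OGN, groups that did not overlap (log2 0.74, SE 0.226, adjusted p = 0.0815 by edgeR). Gpx2 was at 14.6, 15.5, 12.7 and 7.32 CPM with vehicle and at 23.8, 17.0, 27.8 and 17.6 CPM with OGN, again without overlap (log2 0.82, SE 0.262, adjusted p = 0.101). The spread behind these values is shared with the EV-treated fibroblast libraries. With these 4 libraries left out of the fit, Prdx5 passed (log2 0.74, SE 0.0861, adjusted p = 4.01e-06) and so did Gpx2 (log2 0.82, SE 0.177, adjusted p = 0.00306) and Prdx1 (log2 0.17, SE 0.0549, adjusted p = 0.0377), which brought the count to 4 of 10. Over all genes that fit called 963 of 11688 higher and 807 lower, against 316 of 11689 and 217 in the main fit. DESeq2's Wald test on all 16 libraries called 3 members, where 513 of 11689 genes were higher and 350 lower. Beside the Gpx2 values, the summed epithelial markers in fibroblast libraries were 202 to 510 CPM with vehicle and 344 to 660 CPM with OGN, and Epcam was at 11.5 ± 3.45 and 16 ± 5.80 CPM. Their part in the Gpx2 difference was not tested.

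The remaining fibroblast members had small values with OGN. Cat (log2 -0.12, SE 0.112), Sod1 (log2 -0.18, SE 0.198), Ccs (log2 -0.09, SE 0.164), Prdx6 (log2 -0.02, SE 0.198) and Gpx1 (log2 -0.06, SE 0.15) were each within 2 SE of 0. Prdx3, the peroxiredoxin of the mitochondrial matrix, was at 79.1, 86.5, 83.3 and 78.4 CPM with vehicle and at 65.5, 72.8, 71.8 and 70.5 CPM with OGN, without overlap, but did not pass (log2 -0.22, SE 0.110, adjusted p = 0.348 by edgeR). Its value thus had the sign opposite to that of Sod2, which acts in the same compartment.

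**Figure D3:**
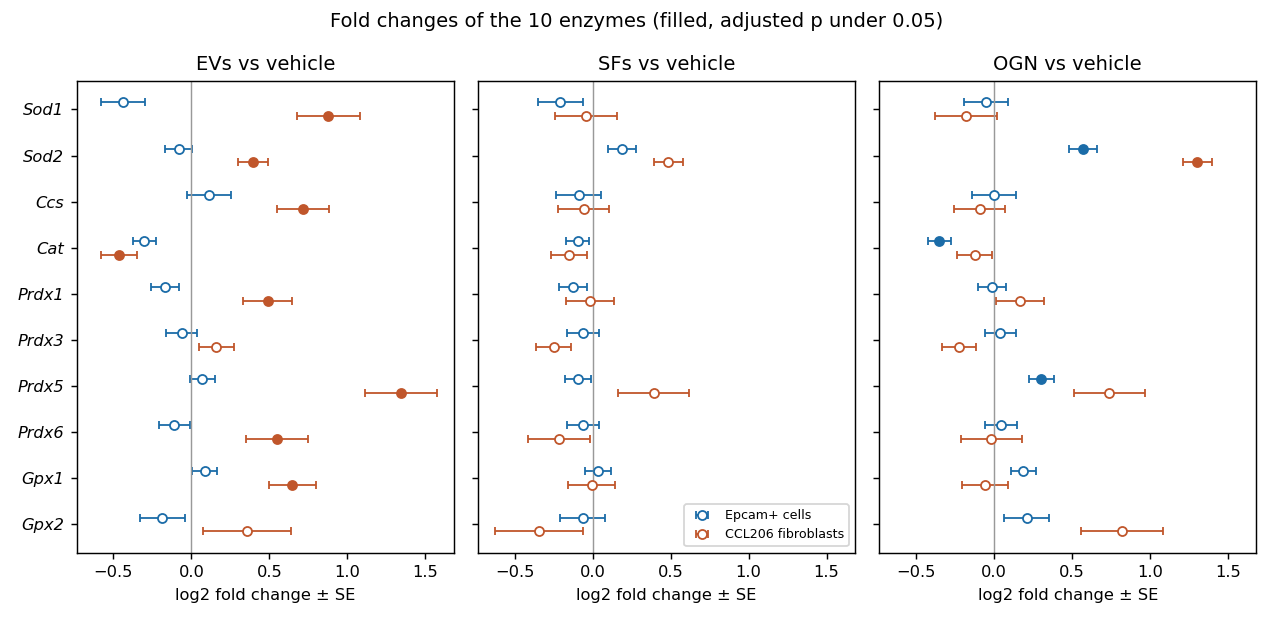
Log2 fold change ± SE of each member for EVs, SFs and OGN against vehicle in Epcam+ cells (blue) and CCL206 fibroblasts (orange), from edgeR's fit over 16 libraries of a population, with filled points where the adjusted p was under 0.05. With OGN the filled points are Sod2 in both populations and Prdx5 and Cat in Epcam+ cells, no point is filled with SFs, and with EVs 8 are filled in fibroblasts and 0 in Epcam+ cells.

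With EVs, 8 of the 10 members passed in fibroblasts, 7 higher and 1 lower, where 36% of all genes passed (19.8% higher, 16.2% lower). The largest were Prdx5 (log2 1.34, SE 0.230, adjusted p = 0.00307 by edgeR), Sod1 (log2 0.88, SE 0.200) and Ccs (log2 0.71, SE 0.166), followed by Gpx1, Prdx6, Prdx1 and Sod2, whereas Cat fell by 0.47 (SE 0.116). The 4 libraries did not share these levels. Prdx5 was at 488 and 629 CPM in mice 2 and 4 and at 214 and 274 CPM in mice 1 and 3, against 129 to 162 CPM with vehicle. Sod1 was at 169 and 225 CPM in mice 2 and 4 and at 77.4 and 112 CPM in mice 1 and 3, against 65.6 to 90.9 CPM. Prdx1 was at 643 and 751 CPM against 400 and 388 CPM, beside 361 to 409 CPM with vehicle, so that mice 1 and 3 lay in the range of the vehicle group. Cat was at 49.96 and 41.9 CPM in mice 2 and 4 and at 89.3 and 71.1 CPM in mice 1 and 3. Its coding length of 1581 bases is the greatest of the members (462 to 822 in the others). By median transcript length, the measure behind the rho values above, Cat (2541 bases) is shorter than Sod1 (5203), Sod2 (3641.5) and Prdx1 (2651), which were higher with EVs.

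Without the EV-treated libraries of mice 2 and 4, 1 member passed, Prdx5 (log2 0.64, SE 0.117, adjusted p = 0.00377 by edgeR), while Sod2 was at log2 0.28 (SE 0.0858, adjusted p = 0.0618), Sod1 at 0.34 (SE 0.123, adjusted p = 0.110) and Prdx1 at 0.01 (SE 0.0782). In that fit 5.48% of all genes passed. No member passed without mouse 2 in all groups, where 15 of 11710 genes were higher and 4 lower. Prdx5 alone passed without mouse 4, where 462 of 11707 genes were higher and 249 lower. Without mouse 4, Ccs was at log2 0.46, Prdx1 at 0.31 and Prdx6 at 0.30. After the trend on transcript length was taken out of each library, 5 passed (Sod1, Sod2, Prdx1 and Prdx5 higher, Cat lower), while Ccs, Gpx1 and Prdx6 did not. Over all genes, 1735 of 11689 were then higher and 1282 lower. In Epcam+ cells 0 of 10 members passed with EVs by edgeR, where 0.888% of all genes passed, with 2 (Sod1 and Cat) at an unadjusted p under 0.05 and 1 (Cat) called by DESeq2. Over all genes, 1195 of 11716 had an unadjusted p under 0.05 by edgeR, and DESeq2 called 123 higher and 78 lower. Sod1 was at 148, 178, 128 and 105 CPM there, against 163, 176, 196 and 209 CPM with vehicle (log2 -0.44, SE 0.141, adjusted p = 0.189).

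**Figure D4:**
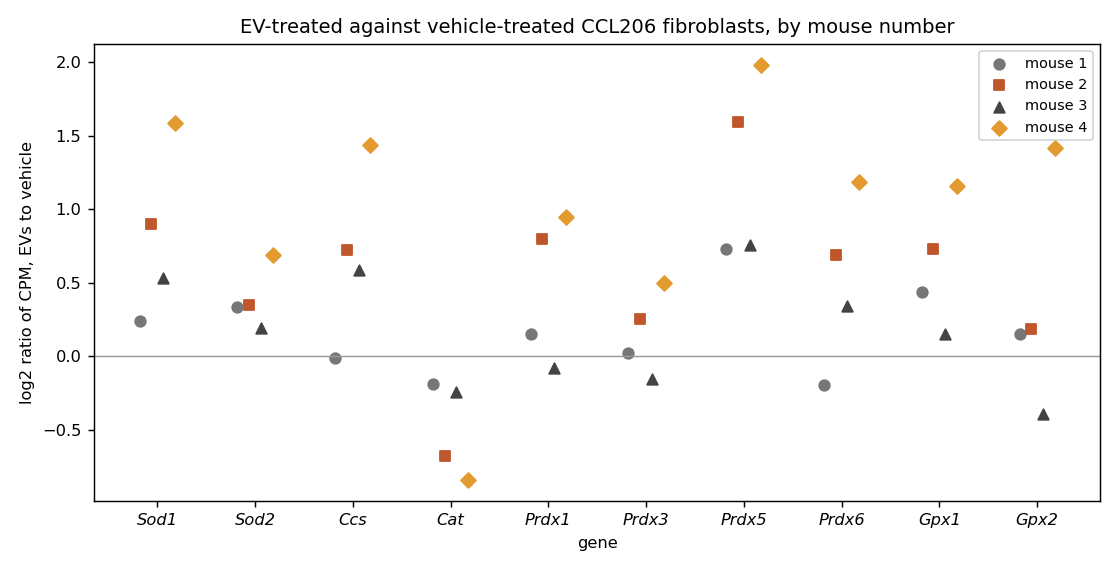
Log2 ratio of CPM between the EV-treated and the vehicle-treated CCL206 fibroblasts of the same mouse number, for each member, with 1 point per mouse. For Prdx5 the ratios are 0.73, 1.59, 0.75 and 1.98 in mice 1 to 4, and mice 2 and 4 lie farthest from 0 for every member except Gpx2.

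The difference of the EV responses between the populations (fibroblasts minus Epcam+ cells) passed for 5 members, Sod1 (log2 1.29, SE 0.262), Prdx5 (log2 1.24, SE 0.253), Prdx1 (log2 0.63, SE 0.187), Gpx1 (log2 0.53, SE 0.177) and Sod2 (log2 0.45, SE 0.125), where 23.8% of all genes passed. With the EV-treated fibroblasts of mice 2 and 4 left out, 0 of these members passed, where 14 of 11813 genes were higher and 19 lower. Without mouse 4 in all groups 1 passed, where 95 of 11802 genes were higher and 166 lower. This was Sod1 at log2 0.83, and Sod2 was at 0.23, Prdx1 at 0.35 and Gpx1 at 0.31.

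With SFs, 0 of 10 members passed in either population by edgeR, where 0.23% of all genes passed in Epcam+ cells and 0.0599% in fibroblasts. In fibroblasts Sod2 and Prdx3 had an unadjusted p under 0.05 and DESeq2 called 1 member, and in Epcam+ cells Sod2 had one and DESeq2 called 0. Over all genes in fibroblasts, 621 of 11689 had an unadjusted p under 0.05 by edgeR, and DESeq2 called 27 higher and 5 lower. Sod2 in fibroblasts came closest (log2 0.49, SE 0.0927, adjusted p = 0.115). All 4 SF-treated values lay above all vehicle values. It passed with only the 8 libraries compared (adjusted p = 7.23e-05), with DESeq2 (adjusted p = 0.000366) and without the EV-treated libraries (adjusted p = 0.000520), at log2 values from 0.46 to 0.52 over all alternatives. Prdx5 had the next largest value (log2 0.39, SE 0.226), with 232, 192, 185 and 185 CPM against 129 to 162 CPM with vehicle, and was at log2 0.21 without mouse 1. The difference of the SF responses between the populations passed for 0 members by edgeR, where 0% of all genes passed, with Sod2 at an unadjusted p under 0.05 and 0 called by DESeq2.

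OGN was also set against the other treatments, which share the OGN-treated libraries. In Epcam+ cells 1 of 10 members differed from EVs, where 2.22% of all genes passed, and this was Sod2 (log2 0.65, SE 0.0861, adjusted p = 8.22e-05 by edgeR). Against SFs 2 passed, where 1.91% did, namely Prdx5 (log2 0.40, SE 0.0813, adjusted p = 0.0106) and Sod2 (log2 0.38, SE 0.0873, adjusted p = 0.0228). In the same comparisons of Epcam+ cells, 6 of 9 fibroblast markers were lower with OGN than with EVs (summed 2052 to 2588 CPM against 3162 to 3745 CPM, without overlap), and 5 of 9 were lower and 1 higher than with SFs (2602 to 3509 CPM). Their part in these calls was not tested. The Sod2 call against SFs was lost on leaving out any 1 of the 4 mice (adjusted p from 0.0681 to 0.124), and that of Prdx5 on leaving out mouse 1, 3 or 4 (0.0553 to 0.116). In fibroblasts, OGN differed from SFs for Sod2 (log2 0.82, SE 0.0922, adjusted p = 0.000130) and Gpx2 (log2 1.17, SE 0.277, adjusted p = 0.0324), where 2.79% of all genes passed. The Gpx2 call was lost without any 1 of the 4 mice (adjusted p from 0.0581 to 0.175). Against EVs 8 members passed in fibroblasts, where 37.6% of all genes did (17.5% higher, 20.2% lower), with Sod2 (log2 0.91, SE 0.0932) and Cat higher with OGN and Sod1, Ccs, Gpx1, Prdx5, Prdx6 and Prdx3 lower. Without the EV-treated libraries of mice 2 and 4, the count was 4, where 867 of 11777 genes were higher and 687 lower. In that fit Prdx5 was at log2 0.09 in place of -0.60. Without mouse 4 in all groups Prdx5 was at -0.31 and Prdx6 at -0.37 in place of -0.56.

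The pathways around these enzymes were followed in lists from general knowledge, chosen with earlier results of these data known. The counts of the lists with OGN stand beside 2.7% of all genes that passed in Epcam+ cells and 4.56% in fibroblasts. Of the other dismutases and peroxidases, 9 of 14 were in the table, and with OGN 2 of 9 rose in fibroblasts and 0 in Epcam+ cells. The 2 were Sod3, the extracellular dismutase (log2 0.60, SE 0.110, adjusted p = 0.00322 by edgeR), and Mgst1, a membrane-bound glutathione transferase with peroxidase activity (log2 0.49). Of the sources of superoxide and peroxide, 12 of 24 were in the table, and 2 of 12 rose with OGN in each population and 0 fell. Ero1a, which forms disulfides in the endoplasmic reticulum and releases hydrogen peroxide, was higher in Epcam+ cells (log2 0.64, adjusted p = 4.98e-05) and in fibroblasts (log2 1.15, adjusted p = 3.43e-05). Noxo1, an organizer of NADPH oxidase, rose in Epcam+ cells (log2 1.58, adjusted p = 0.000487) and Ncf4, another oxidase subunit, in fibroblasts (log2 0.84). The medians of this list with OGN were 0.17 in Epcam+ cells and 0.15 in fibroblasts, beside -0.003 and -0.01 over all genes. In Epcam+ cells the median of the list was 0.14 with EVs and 0.18 with SFs, and in fibroblasts it was -0.01 and 0.06.

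Of the thioredoxin and glutaredoxin genes, 18 of 19 were in the table. With OGN Glrx, a glutaredoxin that removes glutathione from proteins, rose in fibroblasts (log2 0.59, adjusted p = 0.00818 by edgeR) and Sesn3, a sestrin, was lower in Epcam+ cells (log2 -0.52, adjusted p = 0.0233), while the other 17 did not pass in each population. Of 20 measured genes of metal and selenium supply (22 listed), Slc39a14 (log2 0.50) and Slc39a8 (log2 0.30), both importers of zinc, manganese and iron, rose with OGN in Epcam+ cells and 0 passed in fibroblasts. The metallothioneins Mt1 (log2 -0.61) and Mt2 (log2 -0.58) were lower with EVs in Epcam+ cells, and Mt2 was lower with SFs (log2 -0.59). Of the 12 genes of NRF2 regulation and response, all measured, 1 passed with OGN in Epcam+ cells. This was Nqo1, a quinone reductase and standard NRF2 target, which was lower (log2 -0.57, adjusted p = 0.0373), and 0 passed in fibroblasts. With EVs in fibroblasts, the 5 lists held 6, 5, 2, 7 and 2 genes that were higher and 0, 3, 4, 2 and 1 that were lower, in the order dismutases, thioredoxins, sources, metals and NRF2, where 19.8% of all genes were higher and 16.2% lower. Without the EV-treated libraries of mice 2 and 4, they held 1, 0, 1, 0 and 0 that were higher and 0, 0, 1, 0 and 0 that were lower, and 645 genes in all passed (5.48%) in place of 4207. With SFs, 0 genes of the 5 lists passed in fibroblasts.

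The genes whose levels went most like those of Sod2 across the 32 libraries, after the mean of each population was taken off, were Slc2a1 (Pearson's r = 0.94), Cd14 (0.92), Lcn2 (0.91), Slpi (0.90) and Cxcl5 (0.89). They encode a glucose transporter, a lipopolysaccharide co-receptor, a siderophore-binding lipocalin, a secreted protease inhibitor and a chemokine. Without the EV-treated fibroblast libraries the values were 0.90 to 0.94 over 28 libraries. For Cat the nearest were Kcnj15 (0.91), Gm43085 (0.89), Adgrf5 (0.88), Dpp4 (0.88) and Ccdc141 (0.88), and for Prdx5 they were Prelid1, Bsg, Map2k2, Clic1 and Tmem176b (0.94 each). Over 28 libraries these fell to between 0.76 and 0.84 for Cat and between 0.84 and 0.88 for Prdx5. All these values are descriptions across libraries that share treatments, cultures and depth.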

How the data were processed

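RNA of 32 libraries (2 populations, 4 treatments, 4 mice) was sequenced. The authors trimmed reads with Trimmomatic (version 0.30 per the labels), aligned them to the mouse genome and deposited the raw read counts of 11818 genes in 1 table with a column per library. The paper names GRCm38.p6 and the labels GRCm39. The aligner and counting program are not given in the sources used here. No gene in the table has 0 counts in any library.

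The members and all gene lists were chosen with earlier results of these data known. Counts were filtered (filterByExpr) and TMM-normalized, and tested with edgeR's quasi-likelihood F test (edgeR 4.0.16, R 4.3.3) with mouse and treatment over the 16 libraries of a population, as the paper describes a paired analysis. Population was tested over 8 vehicle libraries, and interactions over 32 with a mouse term per population. Adjustment was by Benjamini-Hochberg over all genes, and an adjusted p under 0.05 was called. The standard error is the size of the log2 fold change over the root of F. CPM used TMM sizes over 32 libraries. All comparisons with vehicle in a population share its 4 vehicle libraries. Mouse numbers mark the animal. Deviations of same-numbered libraries from their group means correlated at 0.121 on average within a population (-0.101 to 0.489). Others averaged -0.038 (-0.445 to 0.485), a mean that the centring on groups of 4 largely sets, so that it is no separate contrast. The 48 pairs of replicates each differed by more than counting error (chi-square over degrees of freedom at least 2.98). Fibroblasts are 1 line, so p-values there measure the spread between cultures. Depth was 1805914 to 17675454 counts, median 5901652, and Gpx2 in fibroblasts rested on 30 to 452 counts.

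Coding and transcript lengths came from GENCODE vM39 and matched 98.3% of genes. They replace the RefSeq transcript length first planned, whose table gives genomic spans. Named genes were the 10 members, at most 8 called genes per list with the smallest p, and the 5 genes most correlated with each member called with OGN. The fit was tested on simulated data. Alternatives were the fit without mouse, DESeq2 (1.42.0, against 1.34.0 in the submitters' processing notes), RLE size factors, other filters, only the libraries compared, each mouse left out, removal of a length trend, and fits without EV-treated fibroblasts. Removal by coding length and the median transcript length were chosen after the data were seen. Figures were drawn with matplotlib 3.10.9.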

Additional observations from a re-analysis of the deposited data

Results flagged for a closer look

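Of 80 sets of 4 libraries (10 genes in 8 groups), 7 held a library farther from the other 3 than Dixon's 95% limit on the log2 scale, and chance gives about 4. These were Prdx1 in SF-treated Epcam+ cells of mouse 1 (627 CPM), Prdx3 in SF-treated fibroblasts of mouse 3 (60.3 CPM), Prdx5 in OGN-treated Epcam+ cells of mouse 4 (203 CPM) and in vehicle-treated fibroblasts of mouse 1 (129 CPM), Prdx6 in EV-treated Epcam+ cells of mouse 2 (729 CPM), and Gpx2 in EV-treated Epcam+ cells of mouse 2 (171 CPM) and in SF-treated Epcam+ cells of mouse 4 (207 CPM).

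The response to OGN differed between the populations for Sod2, with a log2 fold change that was 0.73 greater in fibroblasts than in Epcam+ cells. The response to EVs differed for Sod1 (1.29), Prdx5 (1.24), Prdx1 (0.63), Gpx1 (0.535) and Sod2 (0.45), all greater in fibroblasts.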

How the results depend on the processing

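Values are counts of the 10 members called. In Epcam+ cells, OGN against vehicle (3) gave 1 without the replicate block (the pairing by mouse) and 1 with only the 8 libraries compared, OGN against SFs (2) gave 1 and 0, and EVs against vehicle (0) gave 1 with DESeq2, RLE size factors and either length trend removed. Over all genes, OGN against vehicle called 173 higher and 143 lower in the main fit, then 121 and 77, and 116 and 69. For OGN against SFs these were 96 and 128, 35 and 39, and 40 and 37. For EVs against vehicle they were 63 and 41 in the main fit and 123 and 78 with DESeq2. With RLE size factors they were 61 and 42, and with the trend on transcript or coding length removed 66 and 43 or 60 and 41. In fibroblasts, EVs against vehicle (8) gave 1 with only the 8 libraries compared, 5 with either length trend removed and 1 without the EV-treated libraries of mice 2 and 4. Over all genes it called 2317 higher and 1890 lower in the main fit, and 281 and 106 with only the 8 libraries. With the trend on transcript or coding length removed these were 1735 and 1282 or 2028 and 1471, and without those 2 libraries 342 and 303. SFs against vehicle (0) gave 1 with DESeq2, with the coding length trend removed and without those 2 libraries, 3 with only the 8 libraries compared and 2 without all EV-treated libraries. Over all genes it called 7 higher and 0 lower in the main fit. In these settings, in the same order, it called 27 and 5, 12 and 0, 57 and 18, 197 and 105, and 85 and 23. OGN against vehicle (1) gave 3 with DESeq2, with only 8 libraries, with either trend removed and without those 2 libraries, and 4 without all 4. OGN against EVs (8) gave 3 with only 8 libraries, 4 with the transcript length trend removed and 4 without those 2 libraries, and OGN against SFs (2) gave 4 with only 8 libraries, without the 2 and without the 4. Over all genes, OGN against EVs called 2040 higher and 2357 lower in the main fit, then 394 and 518, 1778 and 1823, and 867 and 687. OGN against SFs called 223 and 103, then 709 and 573, 668 and 488, and 696 and 594. The EV interaction (5) gave 2 with only 16 libraries, 2 with the coding length trend removed and 0 without the 2 libraries. Counts over all genes thus also moved between settings. The EV interaction called 1393 genes higher and 1422 lower in the main fit and 463 and 381 with only 16 libraries. It called 989 and 784 with the coding length trend removed, and 14 and 19 without the 2 libraries. OGN against vehicle in fibroblasts called 316 higher and 217 lower, 513 and 350 with DESeq2 and 761 and 609 with only 8 libraries. It called 478 and 303 or 456 and 305 with the transcript or coding length trend removed. Without the 2 libraries it called 865 and 755, and 963 and 807 without all 4.

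Leaving out each mouse gave 1 to 2 for OGN against vehicle, 1 to 2 for OGN against EVs and 0 to 1 for OGN against SFs in Epcam+ cells. Over all genes these called 88 to 173 higher and 56 to 102 lower, 40 to 70 and 87 to 121, and 28 to 65 and 44 to 71. In fibroblasts leaving out each mouse gave 0 to 8 for EVs against vehicle, 1 to 8 for OGN against EVs and 1 in each case for OGN against SFs, and for the interactions 1 to 7 with EVs and 0 to 1 with OGN. Over all genes the 3 comparisons called 15 to 2497 higher and 4 to 2059 lower, 295 to 2258 and 341 to 2563, and 61 to 172 and 17 to 60. The interactions called 95 to 1488 and 118 to 1488 with EVs, and 12 to 39 and 3 to 8 with OGN. The replicate block changed the count of no other comparison by over 1.5 times. Single values that turned sign were OGN against EVs in fibroblasts for Prdx1 (log2 0.0353 with the coding length trend removed, 0.16 without the 2 libraries) and Prdx5 (0.0917 without the 2 libraries), and the EV interaction for Gpx1 (-0.00713 with the transcript length trend removed). The cause was not tested. Per kb, 1 (median transcript length) and 4 (longest) members kept their rank in Epcam+ cells and 3 and 2 in fibroblasts. All 80 group means moved by less than 1 SD with RLE size factors.

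Sod2 with OGN passed in all 12 alternatives in Epcam+ cells and all 14 in fibroblasts, at log2 0.53 to 0.62 and 1.28 to 1.37. At 30 to 452 counts, Gpx2 in fibroblasts is the least precise value.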

Other observations

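The summed level of the 10 members was 2216 to 2461 CPM in vehicle-treated Epcam+ libraries and 1187 to 1276 CPM in vehicle-treated fibroblast libraries. With OGN it was 2284 to 2690 CPM and 1419 to 1592 CPM, and with EVs in fibroblasts it spread from 1371 to 2692 CPM.

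Between the vehicle-treated populations, genes of the supporting pathways were also compared by edgeR's test at an adjusted p under 0.05, which 71.4% of all genes tested passed. Among 18 genes of thioredoxin and glutaredoxin support, the level was above that of fibroblasts in Epcam+ cells for 10 and below it for 4. Of 20 genes of metal and selenium supply, 10 were higher and 7 lower, and of 12 genes of NRF2 regulation and response, 6 were higher and 5 lower. Of 9 other dismutases and peroxidases, 2 were higher and 5 lower, and of 12 sources of superoxide and peroxide, 3 were higher and 6 lower.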
